A study of Mus musculus with 10 samples.

Results

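N2A cells, a mouse neuroblastoma line, were depleted of Qk, the gene for the RNA-binding protein Quaking, and the splicing of all measurable exons, introns and splice sites was compared with that of control cells. The 6 N2A samples among the 10 samples of the series were used: 3 that received an siRNA pool against Qk (siQk) and 3 that received a non-targeting pool (siNT), each at 40 nM and with RNA taken after 72 h. Both groups are the same cell line and underwent the same reverse transfection, so the siNT samples carry the effects of transfection too, and the labels call the samples biological replicates of 1 line. An event was kept where inclusion and exclusion reads together came to 10 or more in all 6 samples, which held for 366665 of the 661162 events in the table. These were 109572 cassette exons, 101355 introns, 90922 alternative acceptors (3' sites) and 64816 alternative donors (5' sites). At this threshold, 3778 events entered with 10 to under 11 reads in their shallowest sample, and 3836 stayed out with 9 to under 10. Exon-event reads ran from 37883497 to 78479832 per siNT sample and from 26595944 to 80481173 per siQk sample, and siQk samples 1 and 2 were the shallowest of the 6.

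Quaking is a protein of the STAR family that binds RNA as a dimer, through a core motif ACUAAY (Y is C or U) together with a nearby half-site. Its nuclear form regulates splicing, and as background the position of the bound motif is known to matter: binding upstream of an alternative exon tends to go with skipping, and binding downstream with inclusion. The protein is best known from oligodendrocytes, where it is needed for the splicing and handling of myelin RNAs, while mature neurons hold little of it. Microexons are cassette exons of 3 to 27 nt, many of which are included in neurons and skipped elsewhere. The percent spliced in (PSI) is the share of a gene's transcripts that include a given exon, intron or splice site.

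The exon sequences below are of changed microexons, a pair of alternative Clasp1 exons and the exon with the largest fall, a choice made after their values were seen. Each is written 5′ to 3′ on the transcript strand, with the cassette exon in capitals and the 30 bases of the neighbouring exons on either side in lower case, from GENCODE M21 transcripts (GRCm38, mm10 in the submitters' processing notes). The exons that rose are those of Ppfia1 (chr7:144488691-144488717, minus strand), Ppfia3 (chr7:45343553-45343579, minus), Ank2 (chr3:126979256-126979267, minus), Clasp1 (24 nt at chr1:118512705-118512728 and 48 nt at chr1:118512175-118512222, plus), Dst (chr1:34296742-34296759, plus), Atp2c1 (chr9:105493543-105493554, minus) and Gramd1a (chr7:31133220-31133231, minus). Those that fell are in Mark3 (chr12:111651958-111651984, plus), Map3k6 (chr4:133243053-133243076, plus), Incenp (chr19:9883192-9883203, minus) and Clstn1 (chr4:149641658-149641714, plus).
Ppfia1 27 nt exon: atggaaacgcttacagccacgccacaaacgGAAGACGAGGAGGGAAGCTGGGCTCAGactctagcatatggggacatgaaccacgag
Ppfia3 27 nt exon: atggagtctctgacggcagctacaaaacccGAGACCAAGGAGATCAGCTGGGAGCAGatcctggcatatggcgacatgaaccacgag
Ank2 12 nt exon: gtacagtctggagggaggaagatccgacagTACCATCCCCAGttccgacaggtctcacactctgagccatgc
Clasp1 24 nt exon: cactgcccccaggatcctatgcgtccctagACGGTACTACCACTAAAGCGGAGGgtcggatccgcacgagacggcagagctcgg
Clasp1 48 nt exon: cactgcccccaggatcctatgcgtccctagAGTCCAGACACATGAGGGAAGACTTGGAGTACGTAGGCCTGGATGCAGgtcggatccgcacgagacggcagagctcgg
Dst 18 nt exon: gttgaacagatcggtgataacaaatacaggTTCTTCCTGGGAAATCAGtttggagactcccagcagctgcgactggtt
Atp2c1 12 nt exon: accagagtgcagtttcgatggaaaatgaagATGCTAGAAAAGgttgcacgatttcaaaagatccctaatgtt
Gramd1a 12 nt exon: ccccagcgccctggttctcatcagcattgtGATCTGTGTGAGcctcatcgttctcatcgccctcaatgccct
Mark3 27 nt exon: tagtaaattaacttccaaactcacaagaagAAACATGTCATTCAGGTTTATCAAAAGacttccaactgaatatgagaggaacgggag
Map3k6 24 nt exon: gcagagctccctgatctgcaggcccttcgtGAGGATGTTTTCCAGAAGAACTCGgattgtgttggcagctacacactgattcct
Incenp 12 nt exon: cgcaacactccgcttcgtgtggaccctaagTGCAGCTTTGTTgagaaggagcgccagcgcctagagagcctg
Clstn1 57 nt exon: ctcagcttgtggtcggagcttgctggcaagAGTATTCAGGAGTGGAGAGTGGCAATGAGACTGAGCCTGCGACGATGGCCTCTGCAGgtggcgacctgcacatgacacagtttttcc

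The liprin exons of Ppfia1 and Ppfia3 lie at the same place of their transcripts, have the same length and share 18 of 27 bases. The Clasp1 exons of 24 and 48 nt have the same neighbours in the annotated transcripts used here, and each is a coding exon. None of the 25 called microexons with a sequence holds an ACTAAY motif inside the exon itself, and neither did any of the 281 tested microexons with annotated ends.

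The ACTAAY core (ACTAAC or ACTAAT in DNA letters) was then looked for in the 250 nt of intron beside tested exons, in both directions and only where a GENCODE transcript, such as a retained intron form, covers the whole stretch. No genome sequence was used, so most introns were not searched, and this search was added after the data had been seen. Downstream of the exon, 1227 such windows were searched and 9.37% held the motif, against 9.86% for the same motif read on the opposite strand. Among the 10 windows downstream of exons that fell, 5 held it (none on the opposite strand), and among the 8 downstream of exons that rose, 0 held it. Upstream, 10.9% of 921 windows held the motif, with 2 of 8 for exons that fell and 1 of 7 for exons that rose. These counts describe few introns and were not tested. Within the searched windows, the upstream match among the risen exons is in Tpm1, where the nearest motif base is intron base 3 counted back from the exon. A column of the authors' deposited microexon list also names a side for ACTAAY. Among called microexons that rose, it gives upstream for those of Ppfia1, Ppfia3, Atp2c1, Sh3glb2, Mta1, Cacnb1 and Col4a1. For the other risen microexons matched to that list it gives no side. These are in Ap1b1, Nckap1, Bin1, Ppp6r3, Eprs, Sh3glb1, Ckap5, Trrap, Arvcf, Tenm3, Dctn1 and Gramd1a. The share of upstream entries over the whole list is not given here, so the upstream names cannot be set against it. The window behind that column was not checked, and its entries were not tested.

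The intron stretches downstream of the 5 exons that fell and carried the motif are printed for their first 180 bases, starting with the first intron base and with ACTAAC or ACTAAT in capitals. They belong to Akap9 (chr5:3954451-3954630, plus strand), Nrcam (chr12:44545436-44545615, plus), Grip1 (chr10:119985630-119985809, plus), Myo5a (chr9:75192465-75192644, plus) and Arhgap17 (chr7:123283597-123283776, minus). Each of them is covered by an exon of an annotated GENCODE transcript.
Akap9 intron: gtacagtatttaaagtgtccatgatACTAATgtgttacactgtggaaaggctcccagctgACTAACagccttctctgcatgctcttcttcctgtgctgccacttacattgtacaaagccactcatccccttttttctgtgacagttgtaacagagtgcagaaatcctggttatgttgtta
Nrcam intron: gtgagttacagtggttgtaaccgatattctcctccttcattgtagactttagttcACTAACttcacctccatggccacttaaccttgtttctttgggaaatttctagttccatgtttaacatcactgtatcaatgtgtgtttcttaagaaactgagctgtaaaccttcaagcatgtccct
Grip1 intron: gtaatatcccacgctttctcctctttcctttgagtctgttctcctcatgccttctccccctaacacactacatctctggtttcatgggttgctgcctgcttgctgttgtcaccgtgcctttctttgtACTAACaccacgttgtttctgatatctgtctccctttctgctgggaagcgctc
Myo5a intron: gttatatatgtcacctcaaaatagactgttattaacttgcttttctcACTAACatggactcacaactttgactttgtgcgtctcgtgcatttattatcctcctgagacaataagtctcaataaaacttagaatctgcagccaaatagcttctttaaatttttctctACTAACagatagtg
Arhgap17 intron: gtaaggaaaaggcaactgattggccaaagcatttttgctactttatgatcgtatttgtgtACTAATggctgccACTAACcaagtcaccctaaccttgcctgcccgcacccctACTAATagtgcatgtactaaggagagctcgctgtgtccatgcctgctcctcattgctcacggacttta

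In Akap9 the motifs start at intron bases 26 and 61, and in Nrcam at base 56. That of Grip1 starts at base 128, those of Myo5a at bases 48 and 167, and those of Arhgap17 at bases 61, 74 and 113. A match of these letters is a description of the sequence and not a measured binding site. Grip1, Myo5a and Arhgap17 were chosen for this display after their values were seen.

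Qk itself was low in every siQk sample. Its junction coverage, the reads of its exon events per 1e6 exon-event reads (CPM), was 90.8, 82.9 and 82.5 in siNT and 8.18, 12.3 and 13.0 in siQk. The groups do not overlap, and 13.1% of the control level remained (log2 difference -2.91, SE 0.16, limma adjusted p = 0.000301). The cells carried the markers of a sympathoadrenal neuroblastoma: of 20 such genes on the list, 16 had enough reads to test, among them Ret and Prph. Their summed coverage was 7710 to 8611 CPM in siNT and 7805 to 9138 CPM in siQk. Marker lists of other cells summed to far less: 0.238 to 0.734 CPM in siNT and 0.414 to 0.447 in siQk for 8 microglial genes, and for 11 oligodendrocyte genes 17.0 to 19.1 in siNT and 19.2 to 21.4 in siQk. That sum and those of 8 astrocyte genes (10.9 to 16.5 CPM in siNT, 17.5 to 24.4 in siQk) and of 9 fibroblast and endothelial genes (7.82 to 10.6 and 13.4 to 16.2) were higher in siQk without overlap, and their part in the results was not tested. Mag, Mog, Olig1, Olig2 and Sox10 of the oligodendrocyte list, Aqp4 of the astrocyte list and Cx3cr1 and P2ry12 of the microglial list had no exon-event read in any sample. The same held for Pcna, a gene of every dividing cell, and for Hand2 and Tubb3 of the cells' own list, so a gene at 0 in this measure may lack a counted exon event and is not shown to be absent.

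Loss of Qk raised the inclusion of 97 cassette exons and lowered that of 55. These were the exons with a limma adjusted p under 0.05 whose mean PSI differed by 10 percentage points or more, among 12930 tested exons with a mean PSI from 2 to 98. The called share was 1.18% of all exons tested, 0.75% upward and 0.425% downward, and 1.4% passed the adjusted p at any difference. By class, 30 of 410 microexons were called (7.32%; 25 rose and 5 fell) and 122 of 12519 longer cassette exons (0.975%; 72 rose and 50 fell). The median difference of PSI over all tested exons was 2.40 points for microexons and 0.00333 points for longer exons. In each of the called exons the 3 siQk values lay entirely above or below the 3 siNT values. Separation by at least 10 points without regard to the p-value held for 489 exons (3.78% of those tested). It held for 49 microexons that were not called, 45 of them higher and 4 lower in siQk, and for 288 longer exons that were not called, 161 higher and 127 lower. Leaving out siNT 2 brought the called microexons to 15, siNT 3 to 17, siQk 2 to 19 and siQk 3 to 17; that of longer exons fell to 65 and 75 when siNT 2 or siNT 3 was omitted.

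**Figure D1:**
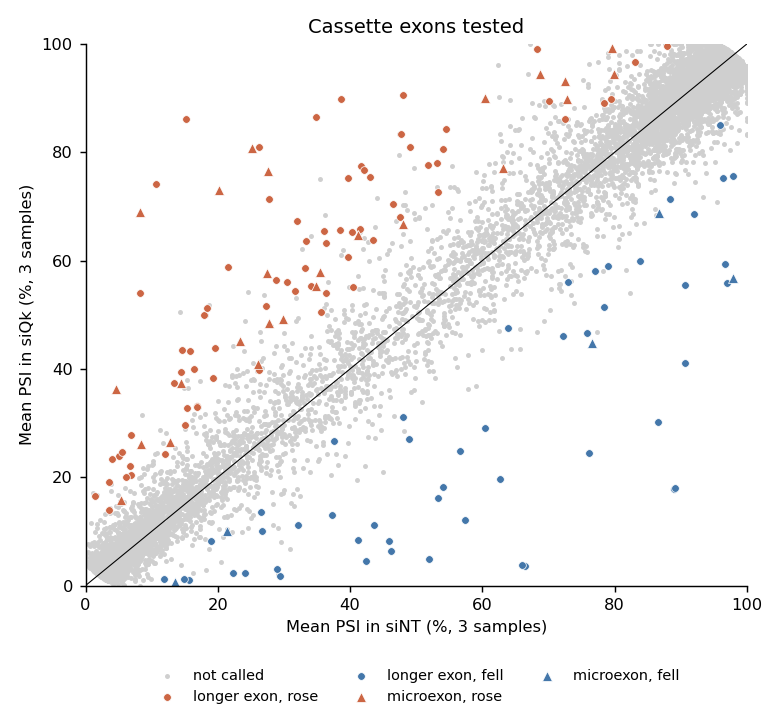
Mean PSI (%) of each tested cassette exon in siNT (horizontal axis) and siQk (vertical axis), each the mean of 3 samples. Grey points are exons not called, red symbols exons that rose and blue symbols exons that fell, with triangles for microexons and circles for longer exons. The 97 exons that rose lie above the diagonal and the 55 that fell lie under it, with those of Clstn1 and Nrcam at the lower right.

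The gene lists used here for microexons were written with earlier results of these data known, so their shares are descriptions and not independent evidence. In the list of synaptic genes, 4 of 17 tested microexons were called and all 4 rose (23.5%, against 7.32% of all microexons). Their median difference was 11.53 points over the 17, against 2.40 over all microexons. In the list of membrane skeleton and adhesion genes 3 of 10 were called, 2 upward and that of Ncam1 downward (30%, median 10.54). The 17 nt exon of Nrxn2, which encodes a presynaptic neurexin, had a PSI of 7.03, 10.0 and 7.78% in siNT and 73.7, 63.4 and 69.9% in siQk. The 12 nt exon of Ank2, the gene of ankyrin-B, which ties membrane proteins to spectrin, had 32.3, 20.1 and 23.1% in siNT and 86.2, 81.5 and 74.9% in siQk. Both exons thus went from a minor to the major form in every siQk sample. The 27 nt exon of Ppfia1 had 21.5, 18.9 and 19.9% in siNT and 76.4, 70.3 and 72.6% in siQk (log2 ratio difference 3.42, SE 0.23, limma adjusted p = 5.00e-05). The corresponding exon of Ppfia3 had 36.4, 24.4 and 21.8% in siNT and 75.4, 82.7 and 71.4% in siQk (limma adjusted p = 0.0065). Ppfia1 and Ppfia3 encode liprin-alpha scaffolds, and their printed exons reached like levels in siQk. Smaller rises were found in the genes of the teneurin Tenm3 and of the catenin Arvcf. The 27 nt exon of Tenm3 had 12.8, 10.5 and 15.0% in siNT and 28, 26.5 and 24.8% in siQk (limma adjusted p = 0.0355). The 18 nt exon of Arvcf had 38.8, 33.0 and 34.8% in siNT and 64.9, 52.6 and 56.2% in siQk (limma adjusted p = 0.0357). The Tenm3 and Arvcf calls were lost whichever sample was left out. In the opposite direction, the 3 nt exon of Ncam1, the neural cell adhesion molecule, had 75.9, 77.0 and 76.7% in siNT and 45.3, 42.9 and 46.0% in siQk (limma adjusted p = 0.00119).

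In the list of microtubule genes, 6 of 24 tested microexons were called, 5 upward and 1 downward (25%, against 7.32% of all microexons, with a median difference of 2.97 points). In the list of actin and myosin genes 1 of 12 was called, that of Nckap1 (8.33%, median 5.45). The 24 nt exon of Clasp1, which stabilises microtubule plus ends, had 6.44, 4.16 and 3.22% in siNT and 44.2, 34.3 and 30.6% in siQk. The 18 nt exon of Dst, a linker of cytoskeletal filaments, had 61.3, 57.1 and 62.5% in siNT and 88.5, 93.1 and 88.3% in siQk. In Kifc3, a minus-end kinesin gene, the 27 nt exon had 71.5, 65.4 and 69.3% in siNT and 91.5, 94.8 and 96.8% in siQk, so the exon was nearly always included after knockdown. Ckap5 encodes a microtubule polymerase. Its 24 nt exon had 50.1, 48.6 and 45.5% in siNT and 66.5, 65.4 and 68.3% in siQk (limma adjusted p = 0.00705). Dctn1 encodes the large dynactin subunit that joins dynein to its cargo. Its 15 nt exon had 41.0, 32.1 and 31.6% in siNT and 51.8, 55.2 and 58.8% in siQk (limma adjusted p = 0.042). The 18 nt exon of Nckap1, a subunit of the WAVE complex that drives actin branching, had 77.2, 67.5 and 72.7% in siNT and 93.0, 91.9 and 94.3% in siQk. Mark3 is a kinase that acts on proteins bound to microtubules, and its 27 nt exon had 15.4, 12.5 and 12.8% in siNT and 0, 1.51 and 0.32% in siQk, so it was almost entirely skipped after knockdown.

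In the list of endocytosis and vesicle traffic genes, 4 of 20 tested microexons were called and all 4 rose (median difference over the 20 of 5.79 points), and in that of Golgi genes 1 of 3 was called, upward. The share over all tested microexons was 7.32%. The 12 nt exon of Atp2c1, a calcium and manganese pump of the Golgi, had 35.4, 21.1 and 25.9% in siNT and 60.3, 60.2 and 52.8% in siQk. The 9 nt exon of Ap1b1, a subunit of a clathrin adaptor, had 47.8, 35.0 and 40.8% in siNT and 64.2, 70.9 and 59.2% in siQk (limma adjusted p = 0.0345). Sh3glb1 and Sh3glb2 encode the 2 endophilin-B proteins, which bend membranes, and both genes had a microexon that rose. That of Sh3glb2 (12 nt) had 17.4, 11.6 and 14.1% in siNT and 36.4, 36.1 and 40.0% in siQk (limma adjusted p = 0.00232). That of Sh3glb1 (24 nt) had 64.6, 61.9 and 62.8% in siNT and 76.0, 77.8 and 77.8% in siQk (limma adjusted p = 0.00895). Bin1 encodes amphiphysin 2, a further membrane-bending protein. Its 24 nt exon had 77.5, 74.5 and 66.3% in siNT and 88.2, 91.9 and 89.5% in siQk (limma adjusted p = 0.00811).

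The remaining microexons that rose lay in genes of other roles. In Trrap, a scaffold of histone acetyltransferase complexes, the 21 nt exon had 25.1, 28.1 and 16.8% in siNT and 49.2, 43.3 and 42.9% in siQk (limma adjusted p = 0.0424). In Mta1, part of a histone deacetylase complex, the 12 nt exon had 80.3, 80.7 and 78.8% in siNT and 97.1, 93.2 and 93.0% in siQk. Eprs, a tRNA synthetase gene, and Pus7, a pseudouridine synthase gene, act on RNA. The 21 nt exon of Eprs had 32.9, 27.6 and 29.2% in siNT and 49.96, 48.6 and 48.9% in siQk, with at least 1101 reads in each sample (limma adjusted p = 0.00152). The 18 nt exon of Pus7 had 26.8, 24.7 and 31.9% in siNT and 44.3, 51.6 and 49.3% in siQk (limma adjusted p = 0.0221). Gramd1a encodes a sterol carrier at membrane contacts. Its 12 nt exon had 8.72, 9.66 and 6.94% in siNT and 26.8, 26.5 and 25.1% in siQk (limma adjusted p = 0.00070). The 18 nt exon of Ppp6r3, a regulatory subunit of protein phosphatase 6, had 5.45, 5.56 and 5.25% in siNT and 11.6, 19.0 and 16.8% in siQk (limma adjusted p = 0.0144). The 17 nt exon of Col4a1, a collagen of basement membranes, is annotated only in transcripts marked for nonsense-mediated decay. It had 27.5, 24.8 and 25.8% in siNT and 36.4, 45.1 and 41.5% in siQk (limma adjusted p = 0.0473). The 20 nt exon of Cacnb1, which also rose, is described with the other Cacnb1 exon.

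Apart from Ncam1 and Mark3, the microexons that fell were those of Map3k6, Mroh1 and Incenp. The 24 nt exon of the kinase gene Map3k6 had 98.2, 100 and 95.4% in siNT and 57.8, 68.7 and 43.8% in siQk. The 12 nt exon of Incenp, which holds Aurora B in the chromosomal passenger complex, had 23.0, 16.6 and 24.6% in siNT and 9.88, 11.0 and 9.39% in siQk. The 27 nt exon of Mroh1 had 91.3, 81.6 and 87.1% in siNT and 63.8, 72.3 and 70.4% in siQk (limma adjusted p = 0.0473). Of the 30 called microexons, 11 stayed called whichever sample was left out, namely those of Nrxn2, Ank2, Ppfia1, Ppfia3, Clasp1, Dst, Sh3glb2, Nckap1, Eprs, Gramd1a and Ncam1. Those of Kifc3, Bin1, Mta1 and Mark3 were lost when siNT 2 was omitted, and that of Map3k6 when siQk 3 was. The other calls were lost in 2 or more of the 6 sets, in all 6 for Arvcf, Trrap and Tenm3.

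**Figure D2:**
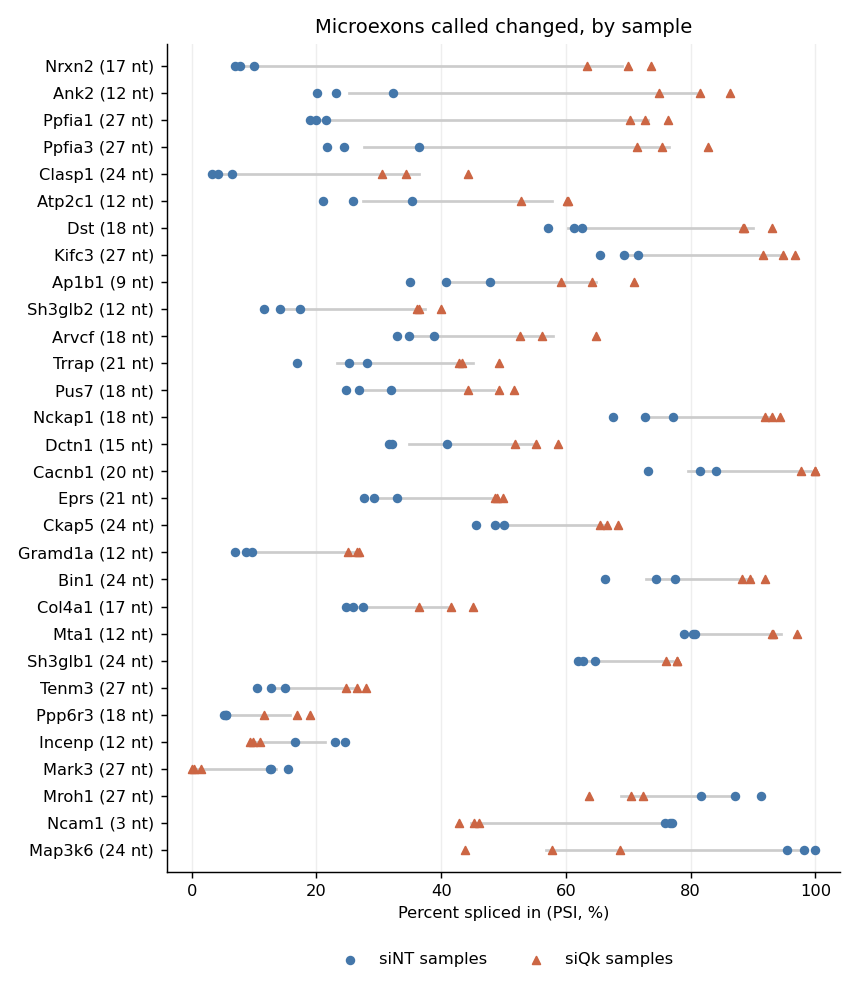
PSI (%, horizontal axis) of the 30 called microexons in each sample, sorted by the difference of means from the largest rise at the top (Nrxn2) to the largest fall at the bottom (Map3k6). Circles are the 3 siNT samples, triangles the 3 siQk samples, and the grey line joins the group means; the groups do not overlap for any exon shown.

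Short exons made up most of the called exons, and most of the called exons keep the reading frame. In bins of length, 7.32% of exons of 3 to 27 nt were called, 2.83% of 1876 exons of 28 to 60 nt, 0.761% of 5780 exons of 61 to 120 nt, 0.556% of 3600 exons of over 120 and up to 200 nt and 0.396% of 1263 longer ones. In the bin of 28 to 60 nt 33 exons rose and 20 fell, and in the bin of 61 to 120 nt 23 rose and 21 fell. The length was a multiple of 3 in 27 of the 30 called microexons (90% against 74.4% of those tested) and in 99 of the 122 called longer exons (81.1% against 41.6% of those tested). Among longer exons with a control PSI from 20 to 80, the share was 76.3% of 76 called and 48.6% of 2076 not called. For microexons in this PSI range it was 90.5% of 21 called and 81% of 100 not called. The 3 called microexons that shift the frame are the 17 nt exons of Nrxn2 and Col4a1 and the 20 nt exon of Cacnb1. By annotation, 22 of the 30 called microexons are coding exons (73.3%, against 58.3% of those tested). So are 92 of the 122 called longer exons (75.4%, against 57.2% of those tested). The exact ends of 5 called microexons and 12 called longer exons are not annotated, against 129 of 410 and 3073 of 12519 tested. These shares are descriptions, since the rule of 10 points favours exons with room to move.

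**Figure D3:**
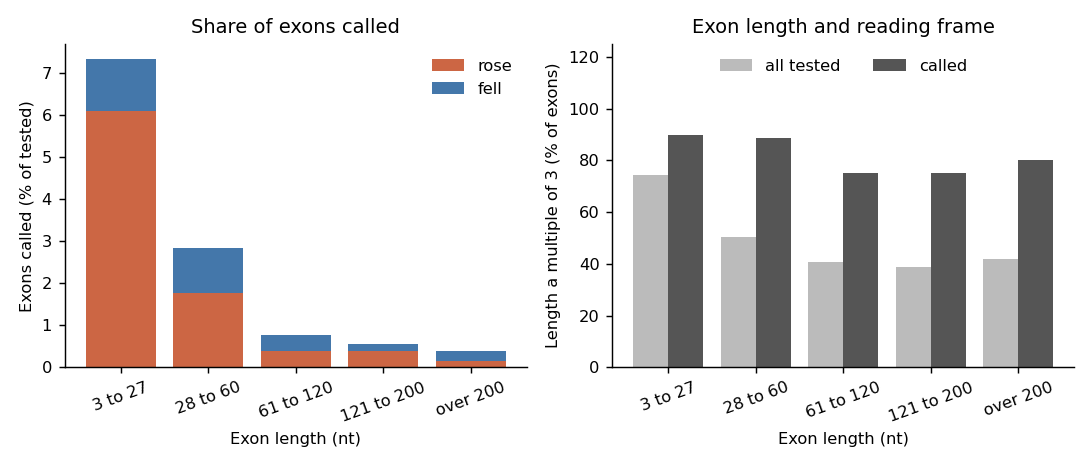
Left: share of tested cassette exons called in each bin of exon length (nt), in percent, with exons that rose in red and exons that fell in blue; the share is 7.32% at 3 to 27 nt and 0.396% over 200 nt. Right: share of exons with a length that is a multiple of 3, in percent, for all tested exons (light) and called exons (dark) of the same bins.

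Among the longer exons, the largest falls were of exons that most transcripts included in control cells and a minority included after knockdown. The 57 nt exon of Clstn1, printed above, encodes part of the cargo adaptor calsyntenin 1 and had 90.9, 88.1 and 87.9% in siNT and 17.6, 17.8 and 18.1% in siQk. The 54 nt exon of Akap9, a centrosome and Golgi scaffold gene whose intron is printed above, had 72.9, 65.0 and 61.6% in siNT and 1.20, 3.70 and 6.10% in siQk. The 57 nt exon of Nrcam, an adhesion molecule of axons, had 88.6, 87.5 and 91.2% in siNT and 24.1, 16.7 and 13.5% in siQk. These 3 exons were included in 61.6 to 91.2% of transcripts over the siNT samples and in 1.20 to 24.1% over the siQk samples. The 48 nt exon of Uap1 had 85.2, 85.9 and 88.7% in siNT and 29.9, 31.7 and 29.2% in siQk. Uap1 makes the sugar donor used in glycosylation. The 63 nt exon of Evl, an actin polymerase of the Ena/VASP family (chr12:108683348-108683410), had 73.5, 76.5 and 78.5% in siNT and 18.8, 26.9 and 27.9% in siQk. The 79 nt exon of Srrm3, the gene of an activator of neural microexons, had 52.6, 72.5 and 72.9% in siNT and 0, 4.98 and 6.53% in siQk, and its call was lost without siNT 2.

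Further large falls were seen in Slmap, Mical3, Dst and Lrrfip2. The 90 nt exon of Slmap, a membrane protein of the STRIPAK phosphatase complex (chr14:26416203-26416292), had 89.0, 91.5 and 91.5% in siNT and 35.8, 45.6 and 41.9% in siQk (limma adjusted p = 6.37e-05). The 72 nt exon of Lrrfip2 (chr9:111193047-111193118) had 61, 63.6 and 63.6% in siNT and 21.9, 18.5 and 18.8% in siQk (limma adjusted p = 2.52e-05). Both are called in every set of 5 samples. Mical3 encodes an enzyme that oxidises actin, and its 51 nt exon, annotated in non-coding transcripts, had 51.2, 59.4 and 45.3% in siNT and 7.14, 4.35 and 3.14% in siQk (limma adjusted p = 0.00342). The 156 nt exon of Grip1, a scaffold of glutamate receptors, had 95.3, 97.6 and 98.1% in siNT and 46.5, 60.2 and 60.7% in siQk (limma adjusted p = 0.000145). Nin encodes ninein, which anchors microtubules at the centrosome. Its 2121 nt exon, the longest exon called (chr12:70042132-70044252), had 51.5, 42.2 and 44.7% in siNT and 7.77, 5.00 and 6.59% in siQk (limma adjusted p = 0.0097), and its shallowest sample held 21 reads. The Nin call was lost without siNT 1, siNT 2 or siNT 3.

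By group means, the largest rises among longer exons turned minor exons into the major form. Single samples lay on the other side in Kif13a (52.8% in siNT 3), Mbnl2 (48.4% in siQk 2) and Afap1 (45.45% in siQk 1). The 45 nt exon of Fryl (chr5:73115256-73115300) had 19.0, 7.94 and 18.4% in siNT and 91.8, 75.0 and 91.7% in siQk. The 144 nt exon of Erbin, a scaffold of epithelial and synaptic junctions, had 22.2, 26.7 and 29.9% in siNT and 80.6, 81.2 and 81.3% in siQk. The 105 nt exon of Kif13a, a kinesin that carries endosomes (chr13:46760663-46760767), had 45.8, 45.4 and 52.8% in siNT and 83.9, 95.1 and 92.9% in siQk (limma adjusted p = 0.00234). The siNT and siQk values lay well apart in each of these exons. The 190 nt exon of Rab12, a small GTPase of recycling membranes (chr17:66504989-66505178), is annotated in non-coding transcripts only. It had 24.5, 26.8 and 32.2% in siNT and 65.3, 73.7 and 74.9% in siQk (limma adjusted p = 0.000496). The 30 nt exon of Mdm1, a centriole protein gene (chr10:118156834-118156863), had 39.1, 40.1 and 46.0% in siNT and 77.2, 75.6 and 79.6% in siQk (limma adjusted p = 0.000198). The calls of 3 others among the 10 largest rises passed with all 6 samples but not with every set of 5, though their groups do not overlap. That of Fkbp7, with 40.4, 35.4 and 40.2% in siNT and 90.9, 84.6 and 94.0% in siQk, was lost without siNT 1, siNT 2 or siNT 3. That of Ksr1 was lost on omitting any of these or siQk 2, and that of the 54 nt exon of Afap1 on omitting any sample but siQk 1.

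In 12 genes 2 or 3 cassette exons were called, 27 exons in all, and in 6 of these genes exons moved in opposite directions. Mapt encodes tau, which stabilises axonal microtubules, and its 3 best known alternative exons all rose. Exon 2 and exon 3, of 87 nt each, add inserts to the N-terminal projection, and the 93 nt exon 10 adds a microtubule-binding repeat. The first 87 nt exon (chr11:104287123-104287209) had 17.0, 15.4 and 15.0% in siNT and 46.2, 43.6 and 40.1% in siQk (limma adjusted p = 0.000119). The second (chr11:104289908-104289994) had 7.93, 5.74 and 6.55% in siNT and 22.7, 22.6 and 21.2% in siQk (limma adjusted p = 0.000446). The 93 nt exon (chr11:104318157-104318249) had 30.04, 32.9 and 36.6% in siNT and 52.6, 61.6 and 61.4% in siQk (limma adjusted p = 0.0025). Each of these events had at least 658 reads in every sample.

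Clasp1 also had 3 called exons, all upward. Besides its 24 nt exon, the neighbouring 48 nt exon printed above had 6.80, 6.10 and 3.86% in siNT and 26.2, 25.1 and 22.7% in siQk (limma adjusted p = 0.00341). A 108 nt exon further downstream (chr1:118531978-118532085) had 18.2, 16.9 and 14.1% in siNT and 40.3, 40.1 and 39.6% in siQk (limma adjusted p = 0.00306). In Ppfia1, a 63 nt exon upstream of the 27 nt exon (chr7:144489197-144489259) had 31.9, 32.9 and 35.3% in siNT and 64.6, 63.8 and 62.3% in siQk (limma adjusted p = 0.000619). Trrap and Bin1 likewise had a microexon and a longer exon that rose together. The 54 nt exon of Trrap had 18.6, 23.4 and 16.0% in siNT and 37.7, 42.5 and 34.9% in siQk, and both Trrap calls were lost whichever sample was left out. The 93 nt exon of Bin1 had 46.0, 48.4 and 52.8% in siNT and 80.6, 81.3 and 81.2% in siQk. Map4k4, a kinase upstream of JNK, had 2 long exons that rose: that of 192 nt had 68.9, 74.1 and 74.6% in siNT and 85.5, 86.2 and 86.7% in siQk (limma adjusted p = 0.00208). Its 162 nt exon had 43.2, 56.8 and 59.9% in siNT and 67.3, 74.4 and 76.3% in siQk (limma adjusted p = 0.0469), a call that was lost without siNT 1, siNT 2, siQk 2 or siQk 3.

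Exons of opposite direction included alternative pairs. Dnm2, the ubiquitous dynamin that cuts vesicles from membranes, has a pair of 139 nt exons. The first (chr9:21478899-21479037) had 29.4, 30.1 and 26.8% in siNT and 54.3, 56.9 and 58.2% in siQk, while the second (chr9:21480407-21480545) had 70.9, 71.8 and 73.9% in siNT and 45.0, 47.8 and 45.3% in siQk. The means of the pair thus went from 28.8 and 72.2% to 56.5 and 46.0%, with limma adjusted p-values of 0.00177 and 0.00136. In Cacnb1, a subunit of voltage-gated calcium channels, the 155 nt exon had 16.2, 15.9 and 14.7% in siNT and 0.59, 0.54 and 1.90% in siQk. Its neighbour of 20 nt had 73.2, 84.0 and 81.5% in siNT and 100, 100 and 97.6% in siQk. Both Cacnb1 calls were lost when siNT 1, siNT 2 or siNT 3 was omitted. In Adgrl2, the gene of the adhesion receptor latrophilin 2, the 129 nt exon (chr3:148821280-148821408) had 10.3, 10.6 and 11.2% in siNT and 71.6, 73.6 and 77.3% in siQk. The 53 nt exon that follows it (chr3:148820973-148821025) had 52.1, 36.7 and 38.4% in siNT and 6.72, 3.32 and 3.31% in siQk (limma adjusted p = 0.00191). Events of neighbouring exons share reads, so these changes are not separate measurements.

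Numb, Dst and Phldb1 carried exons of opposite direction that lie apart in the gene. Numb is an adaptor that antagonises Notch and takes part in endocytosis. Its 147 nt exon (chr12:83797197-83797343), which lengthens the proline-rich region, had 37.0, 33.1 and 39.1% in siNT and 58.5, 72.1 and 59.4% in siQk (limma adjusted p = 0.0151). Its 33 nt exon (chr12:83825259-83825291), which lengthens the phosphotyrosine-binding domain, had 24.8, 21.8 and 20.4% in siNT and 2.66, 3.42 and 0.81% in siQk (limma adjusted p = 0.0125). Both Numb calls were likewise lost on leaving out siNT 1, siNT 2 or siNT 3. The 111 nt exon of Dst (chr1:34303421-34303531) had 60.04, 53.2 and 59.1% in siNT and 11.0, 12.7 and 12.5% in siQk, opposite to its 18 nt exon. Phldb1 encodes a protein that anchors microtubules at the cell cortex. Its 129 nt exon (chr9:44708394-44708522) had 42.6, 40.6 and 43.3% in siNT and 71.8, 79.0 and 79.1% in siQk (limma adjusted p = 0.000443). Its 45 nt exon (chr9:44698827-44698871) had 7.12, 6.6 and 6.96% in siNT and 25.7, 29.8 and 28.01% in siQk (limma adjusted p = 0.00039). Its 141 nt exon (chr9:44700946-44701086) had 24.1, 29.8 and 25.7% in siNT and 11.4, 15.2 and 14.0% in siQk (limma adjusted p = 0.0263), a call that was kept only when siQk 1 was left out.

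**Figure D4:**
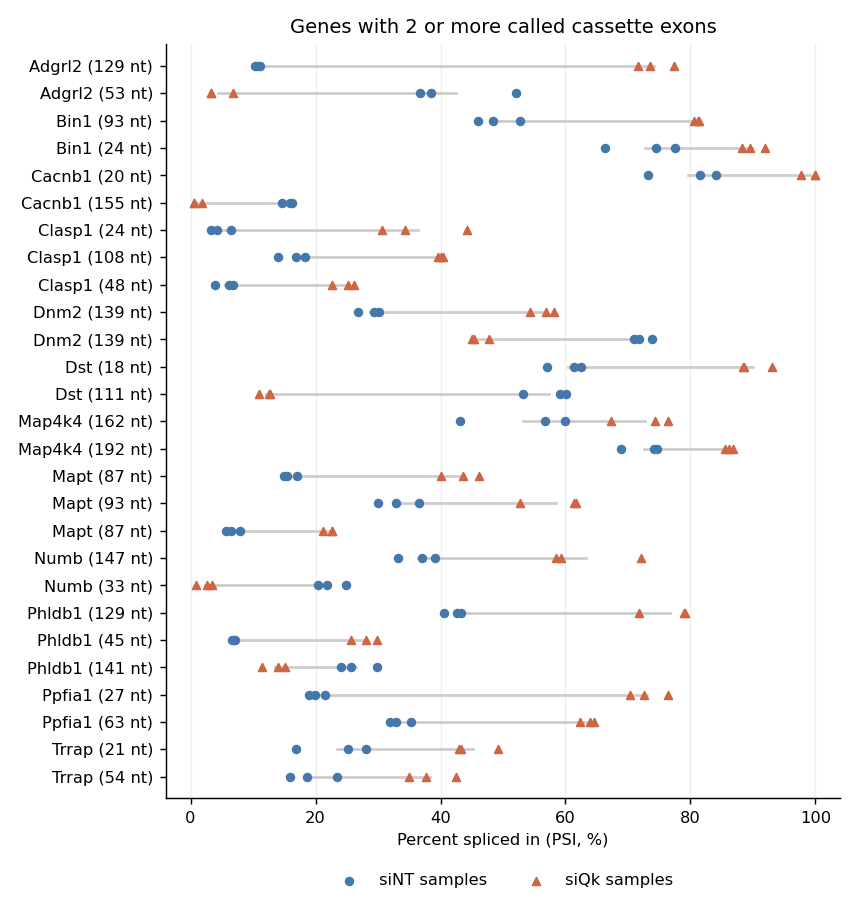
PSI (%, horizontal axis) of the 27 called cassette exons in the 12 genes with at least 2 such exons, with circles for the 3 siNT samples, triangles for the 3 siQk samples and a grey line between the group means. Adgrl2, Cacnb1, Dnm2, Dst, Numb and Phldb1 hold exons that moved in opposite directions, and the Mapt and Clasp1 exons all moved upward.

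The called exons were grouped by lists of genes with a common cellular role, each of which is described by its count beside the 1.18% called among all tested exons. These lists too were written with earlier results of these data known, so a share above 1.18% is not independent evidence of a shared role. Microtubule and motor genes had 15 called of 105 tested exons (14.3%; 13 rose and 2 fell), with a median difference of 0.84 points over all their tested exons, against 0.04 over all exons tested. Besides those of Mapt, Clasp1, Dst and Kif13a, the risen exons included the 60 nt exon of Dync1i2, a dynein intermediate chain gene, which had 46.1, 35.7 and 37.2% in siNT and 79.2, 74.6 and 72.1% in siQk (limma adjusted p = 0.000396). The 42 nt exon of the kinesin gene Kif1b had 37.2, 42.9 and 41.0% in siNT and 64.3, 63.3 and 68.3% in siQk (limma adjusted p = 0.00323). Actin and myosin genes had 10 called of 95 (10.5%; 6 rose and 4 fell, median -0.54). Their falls were in Evl and in the genes of 3 unconventional myosins: Myo18a, Myo9b and Myo5a. The 45 nt exon of Myo18a had 43.3, 40.6 and 39.5% in siNT and 8.09, 9.15 and 8.18% in siQk. The 81 nt exon of Myo5a, a motor that carries vesicles, had 47.5, 32.0 and 32.5% in siNT and 14.3, 11.8 and 13.3% in siQk (limma adjusted p = 0.00454). The 40 nt exon of Myo9b, a further unconventional myosin, had 90.9, 90.2 and 90.9% in siNT and 71.2, 52.5 and 42.6% in siQk (limma adjusted p = 0.00822; lost without siNT 2). Among the rises, the 76 nt exon of Tpm1 (tropomyosin) had 46.3, 34.8 and 37.8% in siNT and 68.9, 56.3 and 56.7% in siQk (limma adjusted p = 0.0427; kept only without siNT 1). Further risen exons of this list were in Fmnl2, Nckap1 and Myh10.

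Membrane skeleton and adhesion genes had 8 called of 136 tested exons (5.88%; 5 rose and 3 fell, median 3.13). The risen exons were those of Ank2, Erbin and Arvcf, a 60 nt exon of Sptan1 and a 36 nt exon of Epb41l1. Sptan1 encodes alpha-II spectrin, and its exon had 42.6, 38.8 and 34.1% in siNT and 74.2, 62.6 and 60.3% in siQk (limma adjusted p = 0.00695). The exon of Epb41l1, a protein that joins spectrin and actin, had 68.0, 70.4 and 71.7% in siNT and 86.5, 90.7 and 91.5% in siQk (limma adjusted p = 0.00187). With Nrcam and Ncam1, the third fall was a 33 nt exon of Cadm1, a synaptic adhesion gene, with 45.4, 50 and 48.8% in siNT and 30.2, 30.7 and 32.4% in siQk (limma adjusted p = 0.0124). The Cadm1 call was lost without siNT 2, siNT 3, siQk 2 or siQk 3, and that of Sptan1 without siNT 2. All 3 falls of this list were in genes of immunoglobulin-type adhesion molecules. Synaptic genes had 9 called of 109 (8.26%; 7 rose and 2 fell, median 1.05), including a 33 nt exon of the liprin-beta gene Ppfibp1 with 17.6, 11.7 and 14.0% in siNT and 38.4, 39.5 and 40.3% in siQk (limma adjusted p = 0.000797).

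Endocytosis and traffic genes had 12 called of 161 (7.45%; 9 rose and 3 fell, median 0.47). Arfgap1 encodes an activator of Arf GTP hydrolysis at the Golgi, and its 30 nt exon had 46.7, 52.2 and 44.1% in siNT and 86.1, 81.9 and 81.8% in siQk (limma adjusted p = 0.00358). The fall of Sec16a, which organises the exit sites of the endoplasmic reticulum, went from 36.4, 28.4 and 31.6% to 9.94, 12.1 and 11.4% (60 nt, limma adjusted p = 0.0216), a call kept only when siQk 1 was left out. Golgi genes had 6 called of 55 (10.9%; 3 rose and 3 fell, median 0.48). Among them the golgin exons differed in direction. The 81 nt exon of Golga2 had 31.1, 27.3 and 23.6% in siNT and 53.4, 51.0 and 50.8% in siQk (limma adjusted p = 0.00675). The 65 nt exon of Golga4 had 36.3, 30.4 and 28.2% in siNT and 59.9, 48.3 and 54.9% in siQk (limma adjusted p = 0.0251; lost without siNT 2, siNT 3, siQk 1 or siQk 3). The 69 nt exon of Golgb1 had 59.9, 57.6 and 52.4% in siNT and 24.7, 24.2 and 25.6% in siQk (limma adjusted p = 0.00738; lost without siNT 2).

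Kinase and small GTPase genes had 6 called of 102 tested exons (5.88%; 4 rose and 2 fell, median 0.31), in Map4k4, Ksr1, Csnk1d, Ralgapa1 and Map3k6. The 63 nt exon of Csnk1d, a clock and signalling kinase, had 39.3, 40.1 and 42.1% in siNT and 56.4, 54.2 and 54.8% in siQk (limma adjusted p = 0.00771; lost without siNT 2 or siQk 3). The 31 nt exon of Ralgapa1, a subunit of the GAP for Ral GTPases, had 96.7, 96.5 and 96.8% in siNT and 45.8, 76.9 and 55.6% in siQk (limma adjusted p = 0.00177). Chromatin genes had 4 called of 111 (3.6%; 3 rose and 1 fell, median 0.19), and the fall was an 81 nt exon of Nfya, a subunit of the CCAAT-binding factor, with 79.2, 85.7 and 86.6% in siNT and 55.9, 59.7 and 64.4% in siQk (limma adjusted p = 0.00695; lost without siNT 2). Centrosome and segregation genes had 3 called of 39 (7.69%; 1 rose and 2 fell, median -0.53). The rise was a 42 nt exon of Numa1, a spindle pole protein, with 46.5, 45.7 and 47.4% in siNT and 75.8, 68.4 and 66.9% in siQk (limma adjusted p = 0.00501). Matrix genes had 1 called of 14 (7.14%; upward, median 0.28), the Col4a1 microexon. Splicing regulator genes had 3 called of 114 (2.63%; 1 rose and 2 fell, median 0.01). Of these, the 36 nt exon of Mbnl2 had 8.46, 8.27 and 7.90% in siNT and 59.97, 48.4 and 53.6% in siQk, whereas the 54 nt exon of its paralogue Mbnl1 had 78.5, 79.6 and 79.1% in siNT and 54.4, 58.4 and 64.3% in siQk. The Mbnl1 call was lost without siNT 1, siNT 2, siNT 3 or siQk 2.

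A list of 18 genes known from other work as targets of Quaking was read the same way. Of these, 9 had a tested exon and 7 a called one (Bin1, Clasp1, Mbnl1, Mbnl2, Myo18a, Nin and Numb), with 11 called of 40 tested exons (27.5%; 7 rose and 4 fell, median 1.77). The list was written with results of these cells known and is not independent evidence.

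Outside the lists, 75 called exons (44 rose and 31 fell) lay in 72 genes, and the following were chosen after their values were seen. Pkm encodes pyruvate kinase, whose neighbouring 167 nt exons distinguish the M1 and M2 enzymes. The first of them (chr9:59675029-59675195), the exon of the M1 form, had 20.1, 19.4 and 19.3% in siNT and 45.0, 44.2 and 42.4% in siQk (log2 ratio difference 1.68, SE 0.08, limma adjusted p = 4.21e-06). This event had at least 9947 reads in each sample. App encodes the amyloid precursor protein, and its 168 nt exon (chr16:85043576-85043743) encodes the Kunitz protease inhibitor domain. That exon had 64.0, 64.0 and 63.5% in siNT and 44.9, 47.99 and 49.8% in siQk (limma adjusted p = 0.0014), with at least 2769 reads. Stim1 encodes the calcium sensor of the endoplasmic reticulum. Its 93 nt exon had 28.7, 28.9 and 30.6% in siNT and 0, 2.67 and 2.45% in siQk (limma adjusted p = 0.0044). All 3 calls were kept whichever sample was left out.

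Introns and alternative splice sites were called at a lower rate: 20 of 17664 introns (0.113%; 11 rose and 9 fell), 10 of 9943 alternative 3' sites (0.101%; 5 rose and 5 fell) and 8 of 7498 alternative 5' sites (0.107%; 4 rose and 4 fell). An intron is measured from reads over its 2 junctions with the exons, and only 6 of the 20 called introns had balanced junctions in all 6 samples by the deposited balance p, among them those of Rbl1 and Gnas and both of Cacnb1. The 166 nt intron of Gnas, the gene of a G protein alpha subunit, had 30.4, 27.4 and 31.4% in siNT and 14.2, 17.5 and 14.6% in siQk (limma adjusted p = 0.000604), with at least 631 reads. The 1002 nt intron of Rbl1, a relative of the retinoblastoma gene, had 2.77, 4.47 and 3.43% in siNT and 11.8, 23.5 and 15.3% in siQk (limma adjusted p = 0.00275; lost without siQk 2). Gnas and Rbl1 were singled out for their balanced junctions after their values were seen. Among introns with the largest changes, the 878 nt intron of Smarcc2 had 39.8, 37.0 and 36.1% in siNT and 83.7, 79.5 and 80.2% in siQk, and the 667 nt intron of Ifi30 had 70.8, 69.8 and 69.8% in siNT and 45.4, 54.1 and 45.8% in siQk. Neither had balanced junctions in all samples, nor did the introns of Sspo, Ksr1, Eps15, Agbl5 and Tradd, which were also among the largest changes. Several called introns overlap or border other called events and are not separate measurements. Those of Eps15, Tradd, Ralgapa1 and Tacc2 border a called alternative site. Those of Ksr1, Strada and Sept6 contain a called cassette exon, and both of Cacnb1 border its called 20 nt exon. The count of introns was 42 without siQk 1 and 11 without siQk 2.

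The called alternative sites lay in 5 genes for 3' sites and in 4 genes for 5' sites, with 1 gaining and 1 losing site in each. The sites of an event share its reads, so such a gain and loss are not separate measurements. The largest rise among 3' sites, in the exonuclease gene Isg20, went from 40.0, 39.6 and 49.3% in siNT to 76.9, 75.0 and 82.3% in siQk, with as few as 13 reads (limma adjusted p = 0.0147; lost without siNT 2, siNT 3 or siQk 3). In Ralgapa1, the 3' site that adds 3 nt had 8.16, 7.48 and 8.92% in siNT and 21.2, 43.8 and 45.6% in siQk (limma adjusted p = 5.17e-05). In Tradd, an adaptor of the TNF receptor, the 3' site that adds 177 nt had 35.8, 29.6 and 29.6% in siNT and 17.3, 15.5 and 19.6% in siQk (lost without siNT 1, siNT 2, siNT 3 or siQk 2). The largest changes of 5' sites were in Eps15, an endocytic adaptor gene, whose site that adds 108 nt had 43.9, 62.4 and 65.6% in siNT and 23.9, 34.4 and 33.1% in siQk (limma adjusted p = 0.0126; lost without siNT 2 or siNT 3). In Gpr137, a lysosomal membrane protein gene, the 3' site that adds 81 nt had 43.6, 49.2 and 39.6% in siNT and 68.6, 64.2 and 62.2% in siQk (limma adjusted p = 0.0032; lost without siNT 3). In Cask, a synaptic scaffold gene with the smallest called change of this class and chosen after its values were seen, the 3' site that adds 15 nt had 18.9, 19.1 and 22.2% in siNT and 3.57, 10.7 and 9.06% in siQk (limma adjusted p = 0.0103; lost without siNT 2, siNT 3 or siQk 1). In Tacc2, the gene of a centrosomal protein that binds microtubules, the 5' site that adds 78 nt had 7.38, 6.30 and 6.96% in siNT and 28.3, 25.3 and 27.8% in siQk (limma adjusted p = 0.000204). The extensions of Gpr137, Cask, Tacc2, Ralgapa1, Tradd and Eps15 are multiples of 3 in length. Those of Isg20 (334 nt) and BC031181 (31 and 131 nt) and the 35 nt one of Gemin2 are not. The share over all tested sites was not counted. The 5' site of Gemin2 that adds 35 nt was at 0 in each siNT sample and had 29.7, 34.3 and 14.7% in siQk. Counts of 3' sites were 17 without siNT 1, 6 without siNT 2 and 16 without siQk 3. Those of 5' sites were 14 without siNT 1, 5 without siNT 2 and 24 without siQk 1.

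Junction coverage, used in place of expression, was called changed at a limma adjusted p under 0.05 for 493 of 10851 genes (4.54%): 321 rose (2.96%) and 172 fell (1.59%). With median-of-ratios scaling 245 of 461 called genes rose, so that the share of rises was 53.1% in place of 65.1%. The count moved with the samples kept: leaving out siNT 1 gave 176 genes, siNT 2 gave 92 and siNT 3 gave 119, while leaving out siQk 1 gave 934, siQk 2 gave 69 and siQk 3 gave 44. Fewer transcripts and reads that move to events not counted here cannot be told apart in this measure. Next to Qk, the largest falls were in Avil, Asic4, Grap2, Fa2h and Dnm3. Avil, an actin-bundling gene of peripheral neurons, had 6.42, 8.45 and 7.16 CPM in siNT and 1.63, 2.45 and 1.43 in siQk (log2 difference -1.76, SE 0.19, limma adjusted p = 0.00431). Asic4, an acid-sensing channel gene, had 17.2, 18.2 and 21.4 CPM in siNT and 4.33, 7.86 and 6.38 in siQk. Fa2h encodes the hydroxylase that makes the hydroxylated lipids of myelin, and had 1.37, 1.64 and 1.63 CPM in siNT and 0.237, 0.226 and 0.398 in siQk. Dnm3, a dynamin gene of synapses, had 5.47, 5.20 and 6.21 CPM in siNT and 1.69, 1.73 and 2.36 in siQk. All of these falls stayed called whichever sample was left out.

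The largest rises were in Ptgr1, Megf10, Tmem63a, Mfge8, Lamb2 and Axl. Megf10, Mfge8 and Axl encode a receptor, a bridging protein and a receptor kinase that take part in the uptake of dying cells. Megf10 had 2.35, 2.54 and 3.24 CPM in siNT and 10.3, 8.91 and 7.88 in siQk (log2 difference 1.57, SE 0.16, limma adjusted p = 0.00431). Mfge8 had 5.44, 6.21 and 7.25 CPM in siNT and 14.9, 21.3 and 19.6 in siQk (limma adjusted p = 0.00442). Axl stayed low, with 0.517, 0.0528 and 0.497 CPM in siNT and 1.93, 1.47 and 1.64 in siQk (limma adjusted p = 0.0221). Ptgr1, a reductase of prostaglandins, had 4.64, 7.31 and 6.21 CPM in siNT and 22.6, 22.4 and 23.9 in siQk. Lamb2, a laminin chain gene, had 4.57, 5.28 and 5.52 CPM in siNT and 15.5, 15.0 and 15.0 in siQk (log2 difference 1.48, SE 0.12, limma adjusted p = 0.00187). In all of these genes the groups are apart on the plot of coverage by sample. The Axl call was lost without siNT 3, siQk 2 or siQk 3, and that of Tmem63a without siNT 2, siQk 2 or siQk 3.

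**Figure D5:**
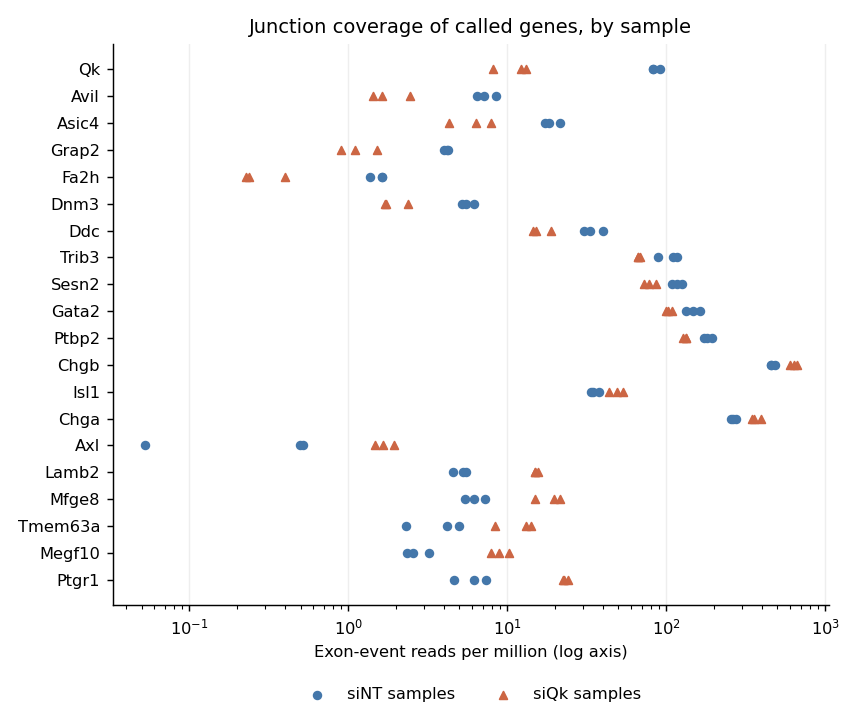
Junction coverage (CPM, logarithmic horizontal axis) of 20 called genes in each sample, with circles for the 3 siNT samples and triangles for the 3 siQk samples, with falls in the upper part, beginning with Qk, and rises in the lower part. Qk stands at 82.5 to 90.8 CPM in siNT and at 8.18 to 13.0 CPM in siQk.

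The marker and pathway lists differed in how many of their genes passed. Of 16 tested sympathoadrenal genes, 3 rose and 2 fell, while 4.54% of all genes were called. The median log2 difference of the list was 0.04, against 0.02 over all genes, and 7 of the 16 had an unadjusted limma p under 0.05. The granins Chga and Chgb, cargo of dense-core granules, rose: Chga had 273, 263 and 257 CPM in siNT and 392, 356 and 348 in siQk (limma adjusted p = 0.0152), and Chgb had 456, 482 and 457 CPM in siNT and 604, 659 and 633 in siQk (limma adjusted p = 0.0128). The homeobox gene Isl1 had 34.8, 33.8 and 37.6 CPM in siNT and 43.7, 53.5 and 48.9 in siQk (limma adjusted p = 0.0461, and 0.0759 with median-of-ratios scaling). Ddc, the enzyme that makes dopamine from its precursor, fell from 30.6, 40.2 and 33.3 CPM to 14.4, 15.0 and 18.7 (limma adjusted p = 0.00759). The transcription factor gene Gata2 fell from 133, 147 and 164 CPM to 99.4, 103 and 109 (limma adjusted p = 0.0232). Trib3 and Sesn2, both genes of the amino acid stress response, fell among 13 tested stress genes: Trib3 went from 89.3, 117 and 109 CPM to 66.0, 68.5 and 66.7 (limma adjusted p = 0.0182). Of these calls, that of Ddc was kept in all 6 sets that left out a sample. Each of the others was lost without siQk 2 or siQk 3, and also without siNT 3 in every case and without siNT 2 in all but Chgb; Isl1 and Sesn2 were lost without siNT 1 too.

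Of 23 tested splicing regulators, 8 had an unadjusted limma p under 0.05, and Ptbp2 was the only one besides Qk that passed after adjustment. Ptbp2, the neuronal polypyrimidine tract binding protein and itself a repressor of many neuronal exons, had 194, 181 and 173 CPM in siNT and 133, 133 and 128 in siQk (log2 difference -0.48, SE 0.08, limma adjusted p = 0.0152). Its call was lost without siNT 2, siQk 2 or siQk 3. Srrm4 had 41.4, 33.5 and 44.3 CPM in siNT and 31.9, 28.3 and 25.6 in siQk (limma adjusted p = 0.0856), and Mbnl1 had 74.9, 70.4 and 69.0 CPM in siNT and 118, 92.8 and 82.9 in siQk (limma adjusted p = 0.0893). Also at an unadjusted limma p under 0.05 were Rbfox1 (log2 difference 0.54), Celf3 (-0.47), Nova2 (-0.36) and Elavl3 (-0.21), none of which passed after adjustment. Rbfox2, Ptbp1, Khdrbs1 and Sf1, which reads a like motif at branch points, had log2 differences from -0.07 to 0.09 and did not pass. With limma none passed among 14 cell cycle genes (1 at an unadjusted p under 0.05), 13 cholesterol synthesis genes (0), 8 interferon response genes (3) or 8 mature synapse genes (2). The summed coverage of the interferon list was higher in siQk without overlap (43.53 to 48.45 CPM in siNT, 55.17 to 59.72 in siQk). That of the cell cycle list was lower without overlap (4840 to 5027 CPM in siNT, 4593 to 4738 in siQk). The sums of the cholesterol and synapse lists overlapped, and the cause of these shifts was not tested.

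Genes with a called exon were also compared for coverage. Of these 137 genes, 6 rose and 10 fell in coverage (11.7%, against 4.54% of all genes), and the median size of the log2 difference was 0.14 both for them and for all genes. Coverage sums the same reads that give the PSI, so the measures are not independent. Among the 16, Col4a1 fell from 534, 547 and 540 CPM to 386, 347 and 339 (limma adjusted p = 0.00561), and Myo9b fell from 209, 172 and 190 CPM to 123, 112 and 101 (limma adjusted p = 0.00852; lost without siQk 3). The called exons of these genes, of 17 and 40 nt, are not multiples of 3 in length. Dclk1, a microtubule-associated kinase, rose from 36.4, 32.1 and 38.9 CPM to 56.7, 61.3 and 53.1 (limma adjusted p = 0.014; lost without siNT 2, siQk 2 or siQk 3) while its 77 nt exon went from 50.6, 67.9 and 43.5% to 14.7, 23.6 and 16.2% PSI. Whether splicing and coverage are linked in these genes was not tested.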

How the data were processed

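Stranded mRNA libraries with long inserts were made from the N2A cells, per the labels' protocols. The authors deposited a table in vast-tools format with the PSI of each event and sample in percent and, per the file headers, a quality cell of another kind that ends in inclusion and exclusion reads. In all cells used, the share these reads give lies within 1 point of the deposited PSI; for complex events they are the event's reads split by the PSI, so they need not be whole. No aligner is named in the sources read; the build is mm10, per the submitters' processing notes.

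Inclusion over exclusion reads, 0.5 added to each and as log2, was tested with limma 3.58.1 in R 4.3.3 (robust, variance trend, two-sided, Benjamini-Hochberg adjustment within each class of event), over events with a mean PSI of 2 to 98. Coverage is the sum of a gene's exon-event reads per 1e6; log2(CPM + 0.5) was tested with limma where a gene averaged 20 reads or more. A read can count for several events, and fold changes of low genes are understated. Reads without a gene name (at most 0.033%) were left out of tests. The scripts were tested on simulated data. Position and frame come from GENCODE M21. Further tools were data.table (version 1.17.8), pandas 2.3.3 and matplotlib 3.10.9 under Python 3.11.15.

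Named were all called microexons, the 10 largest rises and falls of longer exons, called exons in listed genes, genes with at least 2 called exons, the 4 largest rises and falls of each other class, and for coverage listed genes that passed and the 6 largest changes each way; exceptions are marked, and a few genes that the rule names are not reported here. Members and lists were chosen with earlier results of these data known. The labels state biological replicates; p-values measure the spread between these 3 samples per group. The labels do not say what the replicate numbers pair, so the numbers were not used as pairs. Same-numbered samples correlated in their deviations at 0.139, 0.0193 and 0.116 for exons, and samples of unlike number at -0.147 to 0.0451.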

Additional observations from a re-analysis of the deposited data

How the results depend on the processing

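Leaving out 1 sample at a time gave 15 to 28 microexons, 65 to 118 longer exons, 11 to 42 introns, 6 to 17 alternative 3' sites, 5 to 24 alternative 5' sites, 44 to 934 genes by coverage and a log2 difference of Qk from -3.03 to -2.71; the cause of these shifts was not tested. No called event and no named coverage change turned direction under any alternative run. With limma on the deposited PSI the counts were 1 intron, 0 alternative 3' sites (466 at an unadjusted p under 0.05) and 2 alternative 5' sites; of the called exons, 21 of 30 microexons and 95 of 122 longer exons were still called. With sampling-variance weights they were 23 alternative 3' and 15 alternative 5' sites, and with no filter on mean PSI 16 alternative 3' sites. The run on introns with balanced junctions tested 13295 of the 17664 introns and called 6. These were the 6 of the 20 called introns whose junctions were balanced in all 6 samples. Without a filter on reads, 285 genes changed in coverage. With the replicate block, 30 microexons, 131 longer exons, 14 introns, 12 alternative 3' sites, 9 alternative 5' sites and 1551 genes by coverage were called; same-numbered samples correlated in coverage at 0.479, -0.136 and 0.48, so siNT 2 and siQk 2 do not go together and not every sample correlated best with its own number. Other settings (a pseudocount of 1, at least 20 reads) kept all counts within 1.5 times. Depth limits changes of few points in events with few reads. Shares of exons with ACTAAY in fixed windows of 100, 250 or 500 nt were not run, because no genome sequence was used here.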
